A study of Mus musculus with 72 samples.

Results

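The comparison asked which effects of a high dose of lead (Pb) on blood gene expression depended on when the blood was drawn. For each gene it took the difference between high-dose and control mice after 2 weeks without lead and subtracted the same difference measured at the end of 2 weeks of lead in the drinking water. The result is an interaction on the log2 scale: a negative value says that the high-minus-control difference was lower at the later collection, and a value of 0 says that it was the same at both. All genes with a probe set annotated to a single symbol were eligible, which gave 18193 genes, and 12588 of them passed the filter on dim probe sets and were tested. The contrast used 42 of the 72 arrays of the series.

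The animals were female Balb/c mice, 9 weeks old at the start, with no transgene named, and each array held whole-blood RNA of 1 mouse taken by a bleed from the submandibular vein, depleted of globin transcripts. High-dose mice drank water with 50 µg/mL Pb, given as lead acetate trihydrate, low-dose mice 5 µg/mL and controls 0 µg/mL. The exposure collection held 7 control, 15 low-dose and 15 high-dose arrays. All mice then drank lead-free water, and the recovery collection held 7 control, 15 low-dose and 13 high-dose arrays, so its dosed mice were animals that had been bled before. For controls the labels give a first bleed of 7 and a second set of 7, and leave unstated if any animal was in both. Among blood cell markers, 30 of 35 red cell, 27 of 31 platelet and 27 of 30 B cell genes passed the filter. So did 26 of 30 T cell, 23 of 30 monocyte and 24 of 33 neutrophil markers. Of all 18193 genes 12588 passed it, as did 12 of 24 markers of facial skin, muscle and salivary gland. These counts do not test the whole-blood label.

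Lead binds thiol groups and displaces calcium and zinc in proteins, and in blood it is carried mostly by red cells, where it inhibits enzymes of heme synthesis and a pyrimidine nucleotidase. Cells that hold unfolded or damaged protein switch on the heat shock response, in which the transcription factor Hsf1 assembles into a trimer and binds inverted repeats of a GAA unit upstream of chaperone genes. The inducible Hsp70 made from Hspa1a and Hspa1b, its Hsp40 partners and its nucleotide exchange factors then refold or clear the protein, and their transcripts fall again once the stress has passed.

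Some of the chaperone genes carry that paired unit in the 250 bases before their most upstream listed start, and others do not. The 250 bases before the start of the 3 genes called against the low dose whose window holds a pair, from RefSeq on GRCm38.p6, are printed 5′ to 3′ on the strand of the gene, with a pair of facing Hsf1 units (GAANNTTC or TTCNNGAA, each the same on both strands) in capitals. Hspa1b lies on the minus strand at chr17:34959239-34959488, Dnaja1 on the plus strand at chr4:40722218-40722467 and Hsph1 on the minus strand at chr5:149636337-149636586.
Hspa1b: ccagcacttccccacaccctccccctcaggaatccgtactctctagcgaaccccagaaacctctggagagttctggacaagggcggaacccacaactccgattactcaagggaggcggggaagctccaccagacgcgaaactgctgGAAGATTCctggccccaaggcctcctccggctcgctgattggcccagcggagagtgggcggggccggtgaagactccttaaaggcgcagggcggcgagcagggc
Dnaja1: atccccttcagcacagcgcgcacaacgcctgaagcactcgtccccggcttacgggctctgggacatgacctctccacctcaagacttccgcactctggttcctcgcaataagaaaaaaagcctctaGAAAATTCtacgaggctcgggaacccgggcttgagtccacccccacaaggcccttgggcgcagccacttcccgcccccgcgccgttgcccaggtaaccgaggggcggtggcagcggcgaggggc
Hsph1: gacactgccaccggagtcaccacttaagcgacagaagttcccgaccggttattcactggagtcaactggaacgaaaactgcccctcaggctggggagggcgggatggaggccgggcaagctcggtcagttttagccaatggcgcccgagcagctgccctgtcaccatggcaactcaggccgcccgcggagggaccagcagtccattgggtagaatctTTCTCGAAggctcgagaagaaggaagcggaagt
The window of Hspa1a, the neighbouring copy of Hspa1b on chromosome 17, holds the same pair and shares 247 of 250 bases with that of Hspa1b. A pair was present in 3509 of 27025 windows of all genes (12.98%) and in 7 of the 18 windows matched to the heat shock list (38.89%). Of the 8 genes called against the low dose, 7 had a window and 3 of them, those printed, held a pair. The windows of Chordc1, Hspd1, Stip1 and Slc5a3 held none, nor did that of Dnajb1. The window of Hspe1, near that of Hspd1 on chromosome 1, held 3. Each window was taken at the most upstream listed start, and pairs outside it were not looked for.

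1 gene of the 12588 passed the test at an adjusted p under 0.05 (limma with Benjamini-Hochberg adjustment), 0.00794% of those tested, and it was Hspa1b, which encodes inducible Hsp70. At the exposure collection it was 3.82-fold higher in high-dose than in control blood, whose mean of 4.15 was close to the filter level of 4.14 (the median of all values). At the recovery collection no array of any dose was above 3.67, under that level, so no fold is given there and the later difference rests on dim values. No gene passed with a higher interaction, and 432 genes had an unadjusted p under 0.05, which is 3.43% of all tested.

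At the exposure collection Hspa1b had log2 values from 5.04 to 7.60 with a median of 5.93 in the 15 high-dose arrays. In the 7 control arrays of that collection it ran from 3.71 to 4.62 with a median of 4.17, and in the 15 low-dose arrays from 3.48 to 5.15 with a median of 4.13. Every high-dose array lay above every control array, and 13 of 15 lay above every low-dose array. At the recovery collection the high-dose values ran from 3.04 to 3.67 with a median of 3.30, against 2.87 to 3.30 with a median of 3.21 in controls and 2.74 to 3.55 with a median of 3.23 at the low dose. The groups overlapped there, and 6 of 13 high-dose arrays were above the highest control.

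The high-minus-control difference of Hspa1b was 1.93 after exposure and 0.14 after recovery. The interaction was -1.80 ± 0.28 (SE), with a 95% interval of -2.36 to -1.23 and an adjusted p of 0.000176. Hspa1b fell between the collections at all 3 doses: by 2.78 in high-dose, by 0.98 in control and by 1.05 in low-dose mice (adjusted p 2.33e-23, 0.000522 and 1.33e-07). The decline of the high-dose arrays was thus measured on top of one that untreated mice also showed.

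The other 2 probe sets of Hspa1b were dimmer and gave interactions of -1.50 ± 0.25 and -1.89 ± 0.30. The probe set of Hspa1a was above the filter level in no array and was not tested in the main setting. Its mean at the high dose was 2.72 ± 0.51 (SD, n = 15) at the exposure collection and 1.83 ± 0.10 (SD, n = 13) at the later one. The coding regions of the pair are nearly identical, so signal cannot be assigned to one copy with certainty. The Hspa1b probe set was above the median of all values in only 26 of 72 arrays, and a filter asking for 36 removed it and left 0 genes called by limma, with 408 at an unadjusted p under 0.05.

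**Figure D1:**
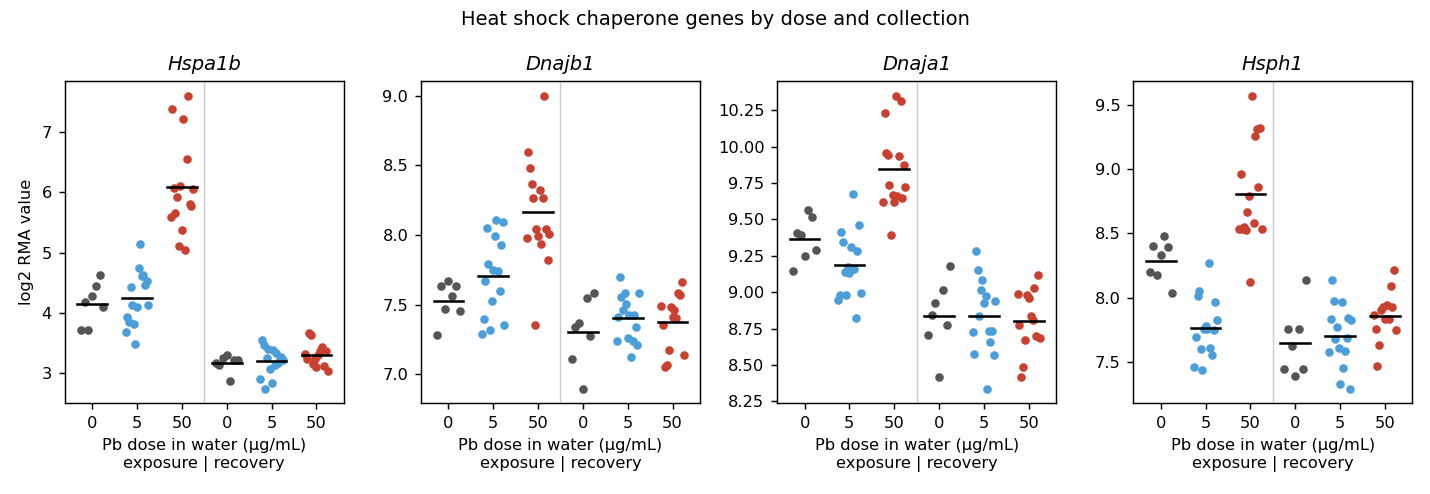
Log2 RMA values of Hspa1b, Dnajb1, Dnaja1 and Hsph1 in each of the 72 arrays (points), by Pb dose in the drinking water and by collection, with the group mean as a bar. After exposure the 15 high-dose arrays of Hspa1b lie between 5.04 and 7.60, above all 7 control arrays, and after recovery the dose groups of each gene overlap.

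The heat shock list held 21 tested genes, and 1 of them, Hspa1b, was called in the high-dose interaction. Of the others, 16 had a negative and 4 a positive estimate. The list's median was -0.09 against 0.01 for all genes tested, and 5 members had a negative estimate with an unadjusted p under 0.05, where 1.49% of all genes did. The list median of the high-minus-control difference was 0.10 after exposure and 0.01 after recovery.

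Dnajb1 encodes the Hsp40 that delivers substrates to Hsp70. Its log2 values ran from 7.35 to 9.00 with a median of 8.04 in high-dose and from 7.28 to 7.67 with a median of 7.57 in control arrays after exposure, and 14 of 15 high-dose arrays lay above the control range. After recovery they ran from 7.05 to 7.66 and from 6.90 to 7.58, which overlap. The Dnajb1 interaction was -0.57 ± 0.17, with a 95% interval of -0.90 to -0.23, and did not pass the adjusted threshold (adjusted p 0.854). Its second probe set gave -0.48 ± 0.13.

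Dnaja1, a farnesylated Hsp40, ran from 9.39 to 10.35 with a median of 9.73 in high-dose and from 9.15 to 9.56 with a median of 9.39 in control arrays after exposure. After recovery its medians were 8.81 and 8.84. Its interaction was -0.51 ± 0.15 (adjusted p 0.854), and it had fallen by 1.04 in high-dose and by 0.53 in control mice. Hsph1, the Hsp110 nucleotide exchange factor, had an interaction of -0.31 ± 0.17, with differences of 0.52 after exposure and 0.21 after recovery. Neither gene passed the threshold against controls (Dnaja1 did with cell marker covariates, adjusted p 0.0355), and the 95% interval of Hsph1, -0.65 to 0.03, includes 0.

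The small heat shock protein Hspb1 went the other way with an estimate of 0.24, as did Dnajb4 with 0.23 and Dnajb6 with 0.03, none of them past the threshold. The constitutive Hsc70 gene Hspa8 had an estimate of -0.03 and the Hsp70 cofactor gene Bag3 one of -0.01. The estimates therefore were not alike across the list: Hspa1b, Dnajb1 and Dnaja1 had the lowest values, while the other Hsp40 genes Dnajb4 and Dnajb6 were above 0 and Hspa8 and Bag3 near 0.

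A second contrast replaced the 14 control arrays by the 30 low-dose arrays, so that the high-dose effect was taken against 5 µg/mL instead of against untreated mice. It shares the high-dose arrays with the first but no control array. 8 genes passed at an adjusted p under 0.05, 0.0636% of those tested, all with a lower high-minus-low difference after recovery, and 7 of the 8 were members of the heat shock list: Hspa1b, Hsph1, Stip1, Dnaja1, Hsp90aa1, Chordc1 and Hspd1. The other was Slc5a3, the sodium/myo-inositol cotransporter. The list's median in this contrast was -0.31 against 0.02 for all genes, with 17 of 21 members negative.

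Hspa1b had a high-against-low interaction of -1.73 ± 0.23 (adjusted p 7.13e-07). Hsph1 had one of -0.89 ± 0.14 (adjusted p 5.28e-05), with a 95% interval of -1.16 to -0.62. In high-dose arrays Hsph1 ran from 8.12 to 9.57 with a median of 8.66 after exposure, and in low-dose arrays from 7.44 to 8.27 with a median of 7.76, so that 14 of 15 high-dose arrays lay above every low-dose array. After recovery the ranges were 7.46 to 8.22 and 7.29 to 8.14, and 1 of 13 lay above. The control median at exposure, 8.33, lay between those of the dosed groups. Hsph1 fell by 0.95 in high-dose and by 0.64 in control mice between collections, while the change at the low dose was -0.06 (adjusted p 0.606).

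Dnaja1 gave -0.69 ± 0.12 (adjusted p 0.000734) against the low dose. Stip1, the adaptor that holds Hsp70 and Hsp90 together, gave -0.64 ± 0.11 (adjusted p 0.000734) against the low dose and -0.18 ± 0.14 against controls. After exposure its control and high-dose medians were close, at 6.69 and 6.65, and the low-dose median was 6.21. The Hsp90 gene Hsp90aa1, with -0.46 ± 0.09 (adjusted p 0.00277), had exposure medians of 9.83 at the high dose, 9.70 in controls and 9.54 at the low dose. The Hsp90aa1 call was lost with the mean over probe sets (adjusted p 0.0671) and with the replicate number as a fixed block (adjusted p 0.0523).

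Chordc1, an Hsp90 co-chaperone, gave -0.51 ± 0.10 (adjusted p 0.00588), and Hspd1, the mitochondrial chaperonin, -0.44 ± 0.10 (adjusted p 0.0286). Of these, Hspd1 had the weakest call: it was lost when high exposure array 2, 4, 9, 11 or 14 or high recovery array 3, 4 or 8 was left out, and with the fixed replicate block (adjusted p 0.0523). Low-dose arrays were not left out in turn. In Hsph1, Stip1, Hsp90aa1, Chordc1 and Hspd1 the low-dose change between collections was between -0.10 and 0.03 and did not pass the threshold. The high-dose change was between -0.95 and -0.47 and passed it in each of these genes. Over the heat shock list 13 of 21 genes fell and 2 rose in controls, where 13.6% of all genes fell and 22.5% rose. At the high dose 17 fell and 2 rose (19.8% and 29.3% of all genes), and at the low dose 6 fell and 3 rose (17.9% and 26.2%). The list's median change was -0.29 in controls, -0.39 at the high dose and -0.07 at the low dose. The size of the interaction thus depended on the reference group. Dnajb1 gave -0.49 ± 0.13 (adjusted p 0.313) against the low dose and was not called.

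Slc5a3 imports myo-inositol when cells meet hypertonic medium. Its values ran from 4.80 to 6.16 with a median of 5.20 in high-dose arrays after exposure, against 4.60 to 5.06 in controls and 4.43 to 5.06 at the low dose. After recovery all 3 groups lay between 3.67 and 4.55. The interaction was -0.80 ± 0.13 (adjusted p 0.000397) against the low dose and -0.61 ± 0.17 (adjusted p 0.628) against controls. These values are those of the brightest of 3 probe sets: the other 2 gave -0.11 ± 0.10 and 0.04 ± 0.10 against the low dose, so the call rests on 1 probe set.

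**Figure D2:**
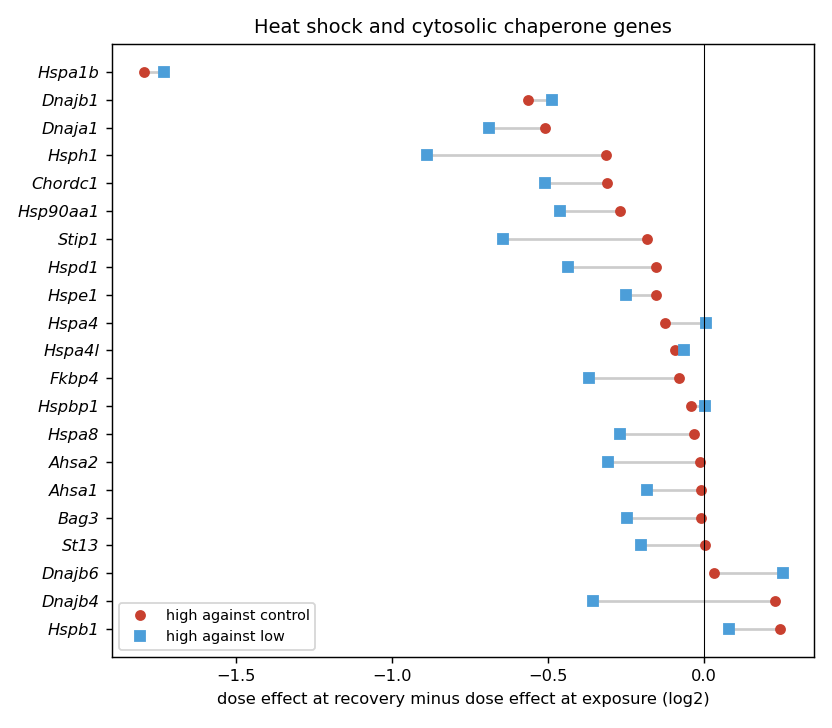
Interaction of each of the 21 tested genes of the heat shock list, as the dose effect after recovery minus the dose effect after exposure (log2), with the high dose taken against controls (red circles) or against the low dose (blue squares). Hspa1b has the lowest estimate in both, -1.80 and -1.73, and Hsph1 and Stip1 stand lower against the low dose, -0.89 and -0.64, than against controls, -0.31 and -0.18.

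Blood cell markers differed in the same high-against-low contrast, without calls. All 27 B cell genes had a positive estimate with a median of 0.35, and 16 of them an unadjusted p under 0.05, where 2.41% of all genes had one on the higher side. Of 16 MHC class II genes 15 were positive with a median of 0.38, and 12 had an unadjusted p under 0.05. The array mean of the B cell list, relative to all arrays, ran from -0.89 to -0.01 at the high dose and from -0.40 to 0.45 at the low dose after exposure, and from -0.07 to 0.50 and from 0.08 to 0.69 after recovery. With the means of 6 blood cell marker lists, the B cell list among them, as covariates, all 8 genes were still among those called, 30 in number.

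Array measures moved with the groups beside these chaperone results. The 18S ribosomal RNA control probe sets had medians of 7.50 in high-dose and 6.88 in control arrays after exposure, and of 6.46 and 6.49 after recovery. The difference between the 3′ and 5′ probe sets of Gapdh had medians of 0.56 and 0.51 after exposure and 0.85 and 0.97 after recovery. With the 18S level as a covariate the Hspa1b interaction was -1.74 (adjusted p 0.000686), and with the 3′ to 5′ differences of the control genes -1.58 (adjusted p 0.00187). With the cell marker covariates it was -1.91 (adjusted p 0.00132). Whole blood is a mixture, and fewer cells of a type and less RNA per cell cannot be told apart in any result given here.

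The 23 named genes that followed Hspa1b by p did not pass the threshold, with adjusted p from 0.105 to 1.0. Their estimates were between 0.27 and 0.70 in size, 18 lower and 5 higher. In 16 of the 23 the estimated change between the collections was larger in size in the control arrays than in the high-dose arrays. In 7 it was larger in the high-dose arrays: Thbd, Slc5a3, Cebpb, Dnajb1, Ccdc117, Atf3 and Dnaja1. An interaction is the difference of these 2 changes, and for most of these genes the control change was the greater. The control change rests on fewer arrays, with a median standard error over all genes of 0.10 against 0.07 at the high dose. Choosing genes by the interaction on the same arrays favours large control changes, so the count is a description.

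Slc12a2, the sodium-potassium-chloride cotransporter that sets cell volume, came closest. Its values after exposure ran from 5.93 to 6.76 with a median of 6.32 in high-dose and from 5.42 to 6.06 with a median of 5.72 in control arrays. After recovery they ran from 5.85 to 6.71 with a median of 6.25 and from 5.85 to 6.85 with a median of 6.47. Control blood rose by 0.64 (adjusted p 3.09e-05), and high-dose blood had a change of -0.05 (adjusted p 0.63). The interaction was -0.70 ± 0.15 (adjusted p 0.105), with a 95% interval of -1.0 to -0.39.

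The Slc12a2 call depended on the setting. It passed after quantile normalisation (adjusted p 0.0231), median centring (0.0297) and cyclic loess (0.0253), with array weights (0.00151), with the hybridisation controls (0.0425) or the 18S level (0.0498) as covariate, and when control exposure array 4, control recovery array 1, high exposure array 1, or high recovery array 2 or 7 was left out (adjusted p 0.00817 to 0.0478). It did not pass in the other settings, and its estimate was nearest to 0 with cell marker covariates, at -0.49 (adjusted p 0.124). The dimmer probe sets of Slc12a2 gave -0.24 ± 0.17 and -0.27 ± 0.16. The corresponding low-dose interaction, which uses the same control arrays, was -0.90 (adjusted p 0.000829), and the high-against-low interaction, which uses none, was 0.20 ± 0.12 (adjusted p 0.993).

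Thbd encodes thrombomodulin, the thrombin receptor that activates protein C. Its high-dose values ran from 5.34 to 6.16 after exposure and from 4.98 to 5.53 after recovery, and its control values from 5.03 to 5.44 and from 4.95 to 5.61. Here the high-dose arrays fell, by 0.52 (adjusted p 2.99e-07), and the controls changed by 0.11 (adjusted p 0.477). The interaction was -0.62 ± 0.14 (adjusted p 0.148), and it passed with array weights (adjusted p 0.0443), with the hybridisation controls (0.0425) or the 18S level (0.0498) as covariate, and when control recovery array 5 was left out (0.0379). Cebpb, a myeloid bZIP factor, had a similar make-up: a high-dose change of -0.58, a control change of 0.01 and an interaction of -0.59 ± 0.16 (adjusted p 0.628). Against the low dose neither pattern was seen, with -0.09 ± 0.11 for Thbd and -0.08 ± 0.13 for Cebpb, since low-dose blood fell by 0.43 and 0.50.

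Most others on the lower side had a positive change in controls. Itgax, the CD11c integrin chain of dendritic cells and monocytes, changed by 0.71 in controls and 0.22 at the high dose (interaction -0.49 ± 0.14). Fry changed by 0.60 and 0.05 (-0.55 ± 0.14), the plasma membrane calcium pump gene Atp2b1 by 0.54 and 0.13 (-0.40 ± 0.12), the lipid droplet gene Plin2 by 0.48 and 0.03 (-0.46 ± 0.14) and the tubulin gene Tubb6 by 0.32 and -0.20 (-0.52 ± 0.13). The Krüppel-like factor genes Klf10 and Klf11 gave -0.52 ± 0.14 and -0.33 ± 0.10. None of these passed in the main setting. Over the 17 other settings Fry ran from -0.63 to -0.09, Atp2b1 from -0.47 to -0.17 and Tubb6 from -0.55 to -0.17. The estimates of Itgax (-0.55 to -0.46) and Plin2 (-0.56 to -0.39) varied less.

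On the higher side were Gp9 at 0.51 ± 0.16, Tmem215 at 0.43 ± 0.13, Dapk1 at 0.40 ± 0.12, Cdkn2b at 0.39 ± 0.12 and the homeobox gene Otp at 0.37 ± 0.12. Dapk1, a calmodulin-regulated kinase, and Cdkn2b, the p15 inhibitor of Cdk4 and Cdk6, were called in the low-dose interaction, at 0.60 each (adjusted p 0.0149 and 0.0217), with 2 of the 3 calls there (0.0238% of genes). Both interactions subtract the same control arrays. Cdkn2b in controls ran from 4.51 to 4.96 after exposure and from 4.05 to 4.47 after recovery, and at the high dose from 4.43 to 5.18 and from 4.43 to 4.91. The control ranges did not overlap and the high-dose ranges did.

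**Figure D3:**
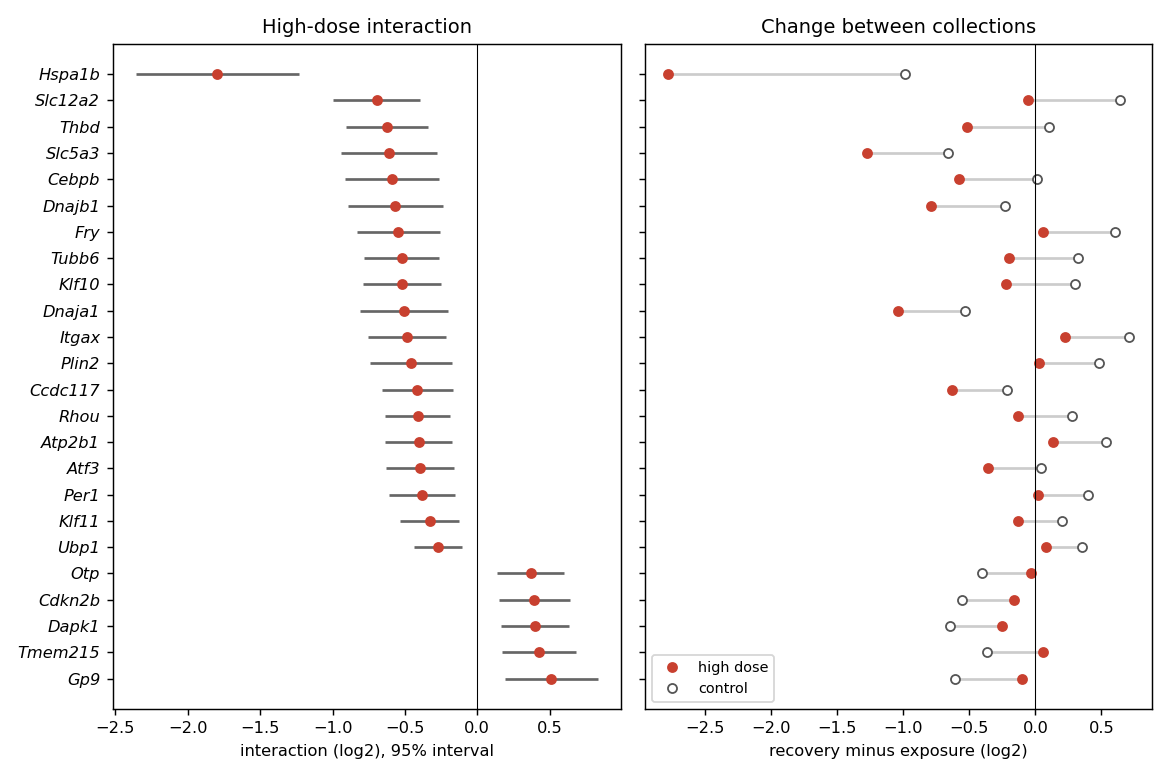
Left, high-dose interaction (log2) of the 24 named genes with its 95% interval. Right, the change from exposure to recovery in high-dose (red) and control (open) arrays, whose difference is the interaction. Hspa1b stands apart at -1.80, and for most genes below it, such as Slc12a2 (0.64 in controls, -0.05 at the high dose), the control arrays hold the larger change.

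Platelet genes formed the most uniform list. All 27 tested members had a positive estimate, from 0.13 to 0.55 with a median of 0.30, and none passed the adjusted threshold. 14 of the 27 had an unadjusted p under 0.05, where 1.94% of all genes had one on the higher side. The list's median high-minus-control difference was 0.01 after exposure and 0.32 after recovery. The members share their cell of origin and are not independent observations.

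Gp9, a chain of the von Willebrand factor receptor, ran from 10.41 to 11.19 with a median of 10.89 in high-dose and from 10.64 to 11.21 with a median of 10.84 in control arrays after exposure. After recovery the high-dose values ran from 10.11 to 10.95 with a median of 10.80, and the control values from 9.53 to 10.68 with a median of 10.38. 11 of 13 high-dose arrays then lay above every control array. Gp9 fell by 0.61 in controls (adjusted p 0.000176) and changed by -0.10 at the high dose (adjusted p 0.377).

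The collagen receptor gene Gp6 gave 0.42 ± 0.14, the ATP-gated channel gene P2rx1 0.41 ± 0.14 and the granule receptor gene Treml1 0.41 ± 0.15. Between the collections 16 of the 27 platelet genes fell and 2 rose in controls, where 13.6% of all genes fell and 22.5% rose. At the high dose 8 fell and 6 rose (19.8% and 29.3% of all genes), and at the low dose 5 fell and 8 rose (17.9% and 26.2%). The median platelet change was -0.33 in controls, -0.03 at the high dose and 0.05 at the low dose. The array mean of the list relative to all arrays, over 7 control arrays, had a median of 0.15 (range -0.07 to 0.43) after exposure and -0.25 (-0.51 to 0.03) after recovery. Over the high-dose arrays it had a median of 0.18 (-0.17 to 0.44) and 0.13 (-0.46 to 0.27). Against the low dose all 27 platelet estimates were negative, with a median of -0.14, so the direction depended on the reference group.

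The genes called in the recovery comparison were looked up in the interaction. 54 genes differed between high-dose and control blood after recovery (0.429% of those tested, 51 higher and 3 lower) and 3 after exposure (0.0238%), with none in common. A call at 1 collection and not at the other does not show that the effects differ, which the interaction tests. None of the 54 passed the interaction test, and 50 had the same sign after exposure. Their median difference, along the direction seen after recovery, was 0.09 after exposure and 0.43 after recovery. All 54 were larger after recovery, which their choice on the recovery arrays favours, so the count is a description. Along the same direction the control arrays changed by a median of -0.40 and the high-dose arrays by -0.09. The list included 6 platelet and 3 red cell markers, among them the erythroid and megakaryocyte factor gene Gata1, with differences of 0.22 and 0.46 and an interaction of 0.24.

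**Figure D4:**
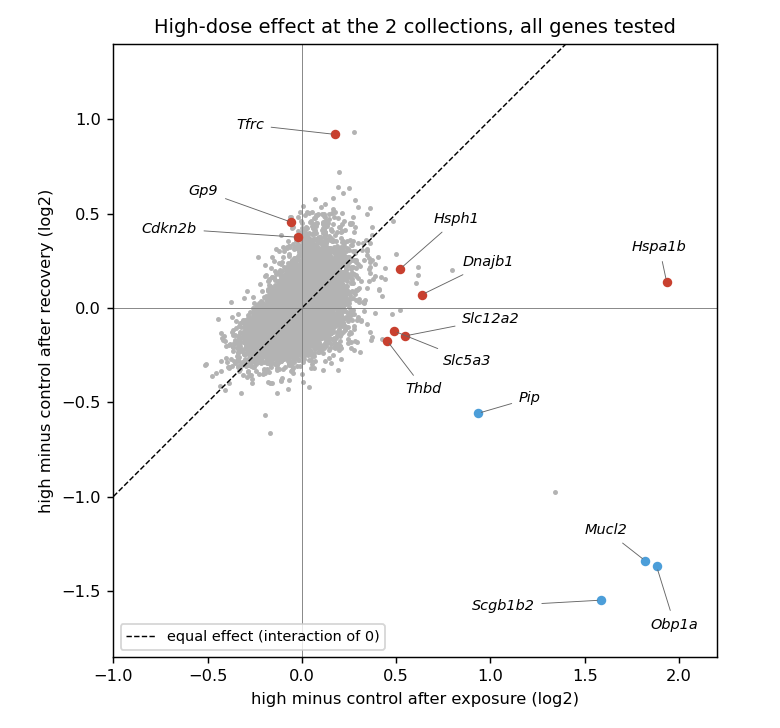
High-minus-control difference (log2) of each of the 12588 genes after exposure (horizontal) and after recovery (vertical), with the dashed line marking equal differences. Hspa1b lies far to the right of the line at 1.93 and 0.14, and the secretory genes Obp1a, Mucl2, Scgb1b2 and Pip (blue) lie low with wide errors.

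Over all 12588 genes the high-minus-control differences of the 2 collections had a Pearson correlation of 0.43, and 69.4% had the same sign. The collections share no array, but the genes are not independent and the high-dose mice bled after recovery were among those bled after exposure, so this is given as a description. The 95% interval of a gene's interaction had a median half-width of 0.25, and it was under 0.5 for 98.8% of genes. 29 estimates exceeded 0.5 in either direction.

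Monocyte markers tended the other way from platelet genes. Of 23 tested, 20 had a negative estimate and none passed, with a median of -0.17. 7 had an unadjusted p under 0.05 with a negative estimate, where 1.49% of all genes did. Those of smallest p were Adgre4 (-0.48 ± 0.17), the pore-forming gene Mpeg1 (-0.37 ± 0.14), the Csf1 receptor gene Csf1r (-0.39 ± 0.14) and the lysosomal marker Cd68 (-0.38 ± 0.16). 15 of the 23 rose in controls between collections, where 22.5% of all genes rose, and 13 rose at the high dose, where 29.3% did. Csf1r, for example, changed by 1.07 in controls and by 0.68 at the high dose. The list's array mean had a median of -0.28 in controls and -0.16 at the high dose at the exposure collection, and of 0.20 and 0.05 at the later one. Against the low dose the direction was the opposite: 2 of the 23 were negative, the median was 0.19, and 6 had a positive estimate with an unadjusted p under 0.05, so here too the direction depended on the reference group.

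**Figure D5:**
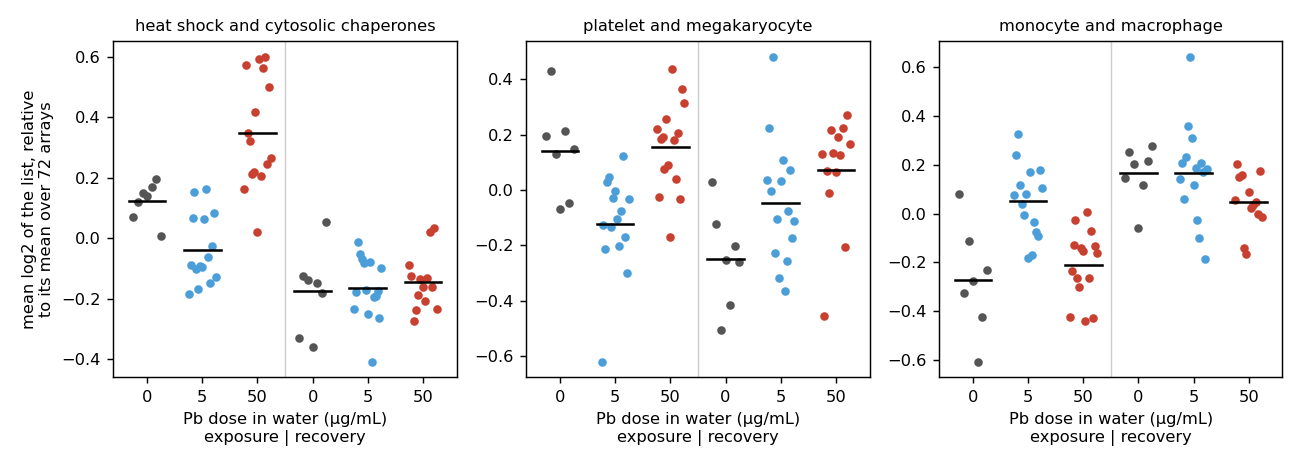
Mean log2 value of the members of 3 gene lists in each of the 72 arrays, relative to the list's mean over all arrays, by Pb dose and collection, with group means as bars. Chaperone means are highest in the high-dose exposure arrays, and the control platelet means have a median of 0.15 after exposure and -0.25 after recovery while the high-dose means have 0.18 and 0.13.

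Genes of rapid stress and hormone responses had negative estimates without calls. In the immediate early list 15 of 23 were negative, where 45.9% of all genes were, and 4 had a negative estimate with an unadjusted p under 0.05, where 1.49% of all genes did: Atf3 (-0.40 ± 0.12), Egr1 (-0.32 ± 0.11), Fos (-0.60 ± 0.26) and Nr4a1, with a list median of -0.15. Against the low dose 10 of the 23 were negative and the median was 0.02. Fos, the AP-1 subunit gene, ran from 7.28 to 8.14 in high-dose and from 5.97 to 7.85 in control arrays after exposure, and from 5.76 to 7.26 and from 5.88 to 6.75 after recovery. Its difference went from 0.80 to 0.20. Dusp1, a phosphatase of MAP kinases, had -0.44 ± 0.22, with differences of 0.61 and 0.18, and the chemokine receptor gene Cxcr4 had -0.40 ± 0.23, with 0.62 and 0.21.

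Of 18 glucocorticoid-responsive genes 17 were negative, where 45.9% of all genes were, with a median of -0.13. 1 of the 18 had an unadjusted p under 0.05, where 1.49% of all genes had one on the lower side: the clock gene Per1 at -0.38 ± 0.11. Per1 changed by 0.40 in controls and by 0.02 at the high dose. Of 18 circadian clock genes 15 were negative, with a median of -0.07, and Clock gave -0.20 ± 0.10. Against the low dose 11 of the 18 glucocorticoid-responsive and 8 of the 18 clock genes were negative, where 42.1% of all genes were. The medians there were -0.02 and 0.02. The hour of each bleed is not given in the labels, and its part in these values was not tested.

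Genes tied to the known biochemistry of lead gave no call. In the heme synthesis list 9 of 13 tested genes were positive, none had an unadjusted p under 0.05, and the median was 0.03. Alad, the aminolevulinate dehydratase that lead inhibits, had an interaction of 0.17 ± 0.19, Alas2, the first enzyme of the pathway in red cells, 0.03 ± 0.05, and Fech, which inserts iron into protoporphyrin, -0.0017 ± 0.05. The 95% intervals of Alas2 and Fech, -0.07 to 0.14 and -0.10 to 0.10, are narrow. Both genes are very bright: their lowest control recovery values were 13.7 and 13.5, where the highest value of all arrays was 14.14. What this level does to the size of a measured difference was not tested. Nt5c3, the nucleotidase that lead inhibits, gave 0.08 ± 0.28.

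Tfrc, the transferrin receptor that loads young red cells with iron, had the largest positive estimate of all genes, 0.74 ± 0.42, with a 95% interval of -0.08 to 1.57 that includes 0. It ran from 8.10 to 10.52 in high-dose and from 7.95 to 9.50 in control arrays after recovery. In the iron list 13 of 19 were positive, and Hfe, the hemochromatosis gene that binds that receptor, gave -0.47 ± 0.15. The metallothionein genes Mt1 and Mt2 gave 0.18 ± 0.12 and 0.14 ± 0.17. Among 17 genes of known protein targets of lead the median was 0.01. Atp2b1 and the kinase gene Camk2d (-0.37 ± 0.13) had a negative estimate with an unadjusted p under 0.05, where 1.49% of all genes did.

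Red cell genes were positive in 24 of 30 with a median of 0.07, where 6804 of the 12588 genes tested were positive. 5 of the 30 had a positive estimate with an unadjusted p under 0.05 and 1 a negative one (1.94% and 1.49% of all genes). Epor, the erythropoietin receptor gene, gave 0.33 ± 0.12, and the erythroid factor genes Tal1 and Nfe2 gave 0.34 ± 0.15 and 0.29 ± 0.12. The glucose transporter gene Slc2a1 gave -0.23 ± 0.11. In the cell volume list, beside Slc12a2, the kinase gene Wnk4 gave 0.35 ± 0.15 and the water channel gene Aqp1 0.34 ± 0.17, and 12 of 17 were positive with a median of 0.04.

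No lymphoid or granulocyte gene passed the test. B cell markers had a median of -0.04 with none of 27 at an unadjusted p under 0.05, and MHC class II genes one of 0.0029 with none of 16. Both lists moved strongly between the collections, by medians of 0.80 and 0.81 in controls and 0.72 and 0.80 at the high dose, so that the change was nearly equal in the 2 groups. T cell genes had 0.09, neutrophil genes 0.06 and natural killer genes -0.09, with 18 of 19 of the last negative, where 45.9% of all genes were. Klrd1 gave -0.36 ± 0.15 and Klrc1 -0.44 ± 0.19, both subunits of inhibitory lectin receptors. Against the low dose 6 of the 19 natural killer genes were negative, where 42.1% of all genes were, and their median was 0.04. With controls as reference, eosinophil and basophil genes had the lowest median of these lists, -0.21 against 0.01 for all genes. Of the 15, 11 were negative, where 45.9% of all genes were. An unadjusted p under 0.05 was held by 2 on the lower and 1 on the higher side (1.49% and 1.94% of all genes). Ms4a2, the IgE receptor beta chain gene, gave -0.38 ± 0.16. Taken against the low dose, 12 of the 15 were negative, 7 with an unadjusted p under 0.05, where 250 of 12588 genes had one on that side.

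Inflammatory genes of the NF-kappaB list were negative in 18 of 23, where 45.9% of all genes were, with a median of -0.09. Il18 gave -0.32 ± 0.13, the adhesion gene Icam1 -0.27 ± 0.12 and the dendritic cell marker Cd83 -0.35 ± 0.17. Against the low dose 8 of the 23 were negative and the median was 0.07, so the direction depended on the reference group. With the high dose taken against controls, the remaining lists had medians between -0.07 and 0.07. These were the endoplasmic reticulum stress genes, with Ern1 at -0.34 ± 0.12 and Atf6 at -0.25 ± 0.11, the interferon, antioxidant, p53, cell cycle, ribosomal protein, proteasome, oxidative phosphorylation, splicing, plasma cell, globin, metal transport and facial tissue lists. None of their members passed.

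6 genes had an estimate over 1 in size. Beside Hspa1b and a gene model, they were 4 genes of secretory glands, none past the threshold and each with a wide error. Obp1a, an odorant-binding protein of secretory glands, had the lowest estimate of all genes, -3.25 ± 2.04, followed by Mucl2 (-3.16 ± 1.90) and Scgb1b2, a secretoglobin of the salivary androgen-binding proteins (-3.13 ± 1.97). Pip, a secretory protein of exocrine glands in the list of tissue around the bleeding site, had -1.49 ± 1.01. At the high dose Obp1a was between 1.24 and 10.53 with a median of 2.04 at the exposure collection, and between 1.23 and 8.64 with a median of 1.81 at the later one. In controls it ran from 1.28 to 9.40 and from 1.18 to 9.32. The medians were low and the highest arrays high in all 4 groups, and these 4 genes were singled out after their values were seen.

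The deposited log2 values ran from 0.41 to 14.14 over all arrays, with array medians from 4.05 to 4.22. The median interaction over all genes was 0.01. Measured within controls alone, 4543 genes (36.1%) changed between the collections, and within the high-dose arrays 6189 (49.2%), so that the collections differed widely at both doses. Each dose group at a collection came from a separate set of bleeds, and with no other technical batch named in the labels the date of collection and the state of the animals at that collection cannot be told apart for a change within a dose.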

How the data were processed

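Whole-blood RNA of 72 mouse blood samples was hybridised to Affymetrix arrays. The log2 values deposited by the authors are RMA values, per the submitters' processing notes. The RMA version was not given in the sources used here. Of 45101 probe sets, 34945 had 1 symbol, 932 several and 9160 none in the annotation table, and 64 were controls. Probe sets above 4.14, the median of all values, in at least 7 arrays were kept (21044), and each gene was read from the one of highest mean (12588 genes). A model with 1 mean per dose and collection was fitted to all 72 arrays (66 residual degrees of freedom) with limma 3.58.1 in R 4.3.3, with empirical Bayes moderation and Benjamini-Hochberg adjustment at 0.05, and was tested on simulated data. The number of arrays limits the precision. Errors beside estimates are standard errors.

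The genes named were those past the threshold, then those of smallest p up to 24, leaving out clone names, plus up to 4 members of smallest p in a list, and 17 genes given whatever their result. The members and lists were chosen with earlier results of these data known. Genes past the threshold against the low dose were all named. The replicate numbers did not pair the collections: same-numbered arrays had correlations of their deviations from -0.46 to 0.48 at the high dose (4 of 13 above 0.1) and from -0.42 to 0.26 in controls (3 of 7). Promoter windows came from RefSeq. The main model treated repeated bleeds of a dosed mouse as independent. Alternatives covered normalisation, filter, probe set choice, prior, array weights, covariates, the replicate number as a block and single control or high-dose arrays left out.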

Additional observations from a re-analysis of the deposited data

Results flagged for a closer look

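The high-minus-control difference of Hspa1b differed between the collections by -1.80, by the interaction test. The high-minus-low difference differed between the collections, by the same kind of test, for Hspa1b by -1.73, Hsph1 by -0.89, Slc5a3 by -0.80, Dnaja1 by -0.69, Stip1 by -0.64, Chordc1 by -0.51, Hsp90aa1 by -0.46 and Hspd1 by -0.44.

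4 values stood far from the other arrays of their group of 7. Hspa1b was 2.87 in control recovery array 5, with the nearest other array at 3.13. Gp9 was 9.53 in control recovery array 3, with the nearest at 10.2. Alas2 was 13.7 in control recovery array 5, with the nearest at 13.8, and Fech 13.5 in the same array, with the nearest at 13.6. The 39 genes gave 78 such control groups, of which 4 were set apart, and chance sets apart about 1 group in 20.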

How the results depend on the processing

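Hspa1b passed in each of the 16 other settings and 42 single-array omissions that tested it, with interactions from -1.91 to -1.58 and from -1.87 to -1.69. The count of genes called was 2 after quantile normalisation, median centring or cyclic loess (Slc12a2 joined), 3 with the hybridisation controls or the 18S level as covariate (Slc12a2 and Thbd joined), 6 with array weights (with Slc12a2, Thbd, Cebpb, Fry and Atp2b1) or cell marker covariates (with Fry, Dnaja1, Dyrk1a and 2 gene models) and 0 by limma with the stricter filter (408 at an unadjusted p under 0.05), at which 36 arrays were required and Hspa1b was not tested. It was 1 to 2 when 1 array was left out. The replicate block left it at 1, random or fixed. As the replicate numbers did not pair the collections (consensus correlation 0.021), the block cannot show the effect of repeated bleeds. The count against the low dose was 15 with array weights, 30 with cell marker covariates and 6 with the fixed replicate block (Hsp90aa1 and Hspd1 lost). Without the filter on dim probe sets it was 9, as Hspa1a joined. It was 7 to 9 when 1 control or high-dose array was left out. Control arrays enter that contrast only through the shared estimate of spread. No low-dose array was left out, so the part of single low-dose arrays was not tested. The 8 genes were all among the calls of each rescaling (12 calls each). The contrast could not be fitted on the 42 control and high-dose arrays. Estimates near 0 changed sign: Fech to 0.00029 (median centring), 0.00073 (probe set of highest variance), 0.0057 (fixed replicate block) and 0.00019 (3′ to 5′ covariates), and it ran from -0.0178 to 0.00431 without single arrays, Alas2 to -0.0565 (cyclic loess), Mt1 to -0.0412 (highest variance) and Nt5c3 to -0.0436 (array weights), running from -0.0185 to 0.164 without single arrays. With array weights the list medians were -0.33 for monocyte and -0.25 for NF-kappaB genes, and with cell marker covariates, which include the platelet mean, 0.01 for platelet and -0.05 for cell volume genes. The cause was not tested. 2703 of 2763 gene values kept direction and side of the threshold. 1825 of 1829 list medians moved by less than the within-group standard deviation of the list's array means. Their sign was not compared and could change: the globin median, -0.06 in the main setting, ran from -0.09 to 0.11 over the 17 other settings. Leaving out 2 arrays of wide relative log expression, chosen after seeing the data, left the counts at 1 and 8.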
